A study of Mus musculus with 16 samples.

Results

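The matrix metalloproteases (Mmp genes), the Adamts proteases and the tissue inhibitors of metalloproteases (Timp genes) were examined across the cell types of the mouse spinal cord and across time points after a dorsal column lesion. The genes were all symbols of the deposited gene list that carry these family names followed by a number. They came to 46 genes, of which 23 were Mmp, 19 were Adamts and 4 were Timp genes. Matrix metalloproteases and Adamts proteases are zinc enzymes that cut proteins of the extracellular matrix, and most are secreted while some Mmps are held in the cell membrane. Several Adamts proteases cut aggrecan, versican and other proteoglycans that are abundant around neurons and in the scar after spinal cord injury. Timps are small secreted proteins that bind the active site of these enzymes and block it, and Timp3 in particular is held in the matrix and also inhibits Adamts proteases.

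Single-cell suspensions had been prepared from spinal cord around the lesion, in 16 mice of 8 to 10 weeks, and each mouse gave a single 3′ library. Control mice (Ryk+/+,GFAPcreERT2, called WT here) and mice with a conditional knockout of the Wnt receptor gene Ryk in astrocytes (Rykfl/fl,GFAPcreERT2, called cKO) were compared without injury and 1 d, 7 d or 14 d later than the lesion, which made 8 conditions of 2 mice. All 16 mice therefore carried the CreERT2 transgene, which the human GFAP promoter drives. Tamoxifen had been given daily for 7 days, from before surgery until shortly after it. The paper states that uninjured controls were analyzed 14 d after the knockout. Mice at 1 d were thus nearer to the dosing than uninjured mice, and injury and time since tamoxifen cannot be told apart in that comparison. The sample titles mark the uninjured mice as nsci, and Sham is the word for them in other labels. Tissue was cut, digested with pronase in the presence of actinomycin D, which blocks new transcription, and cleared of dead cells, so that cells which survive this poorly are missed.

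Levels are given as CPM, the UMIs (single captured RNA molecules) of a gene per 1000000 UMIs of all cells of that type in that mouse. In 15 mice the libraries held 208 to 1845 cells and 536263 to 9008729 UMIs, with a median of 3032957 UMIs. The library of WT replicate 2 at 1 d held 1 cell with 266 UMIs and entered no comparison, so that the 1 d group consisted of 1 WT and 2 cKO mice. At 1 d and at 7 d, the replicate 1 libraries of both genotypes were shallow. Their median was 414 to 548 UMIs per cell, against 1040.5 to 3637 in the other 11 libraries. They also shared cell barcodes. Of 166 barcodes found in 2 or more libraries, 28 occurred in all 4 shallow libraries, and 358 of the 432 cells with such a barcode lay there (6.84% of the cells of these 4 libraries). For 6 mice, all of them replicate 2, the deposited cell names carry another condition than the sample titles. The titles were followed, and calls lost when the cell names were followed instead are given with the results.

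The authors' clusters were used as cell types, with the 3 astrocyte clusters, the 2 microglia clusters and the 2 oligodendrocyte clusters each merged, which turned 17 clusters into 13 types. The summed level of each type's marker genes was highest in that type for all 13 lists. The astrocyte, microglia and fibroblast lists had 8 of 8, 6 of 6 and 5 of 5 markers at their highest there, the immune list 5 of 6, and the neuron, oligodendrocyte and OPC lists 4 of 5 each. The cluster left without a cell type in the deposited cell table had 5 of 5 ependymal markers at their highest and is called ependymal cells here. Astrocyte Cluster 2 carried more UMIs of oligodendrocyte markers (20945 CPM summed) than of astrocyte markers (9272 CPM). The knockout was not visible in the level of Ryk itself. Ryk in astrocytes ranged from 54.0 to 157 CPM with a median of 108 CPM in 7 WT mice, and from 23.0 to 123 CPM with a median of 87.6 CPM in 8 cKO mice. The genotypes overlapped over most of this range, and 3′ tags that lie outside a deleted exon do not check a knockout.

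All 46 genes had at least 1 UMI, from 1 for Mmp7 to 15386 for Timp3 with a median of 605. Together they made up 0.122% of all UMIs, and the Timp genes gave 46.0% of these. The 10 genes with under 50 UMIs were 8 Mmp and 2 Adamts genes, among them the stromelysin genes Mmp3 (37 UMIs) and Mmp10 (4 UMIs) and the collagenase gene Mmp13 (19 UMIs). At this depth these 10 genes could not be placed in a cell type, and the other 36 are described below. Fibroblasts had the highest summed level of the 46 genes (3874 ± 1107 CPM, SD, n = 9 mice), followed by myeloid cells (2751 ± 2026 CPM, n = 5). Microglia (800 ± 250 CPM, n = 14) and oligodendrocytes (638 ± 153 CPM, n = 15) lay below. The families divided differently over the types. Of the sum in myeloid cells nearly everything was Mmp (2558 ± 1953 CPM), whereas in ependymal cells most was Adamts (1359 ± 426 CPM, n = 10) and in astrocytes most was Timp (611 ± 119 CPM, n = 15).

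**Figure D1:**
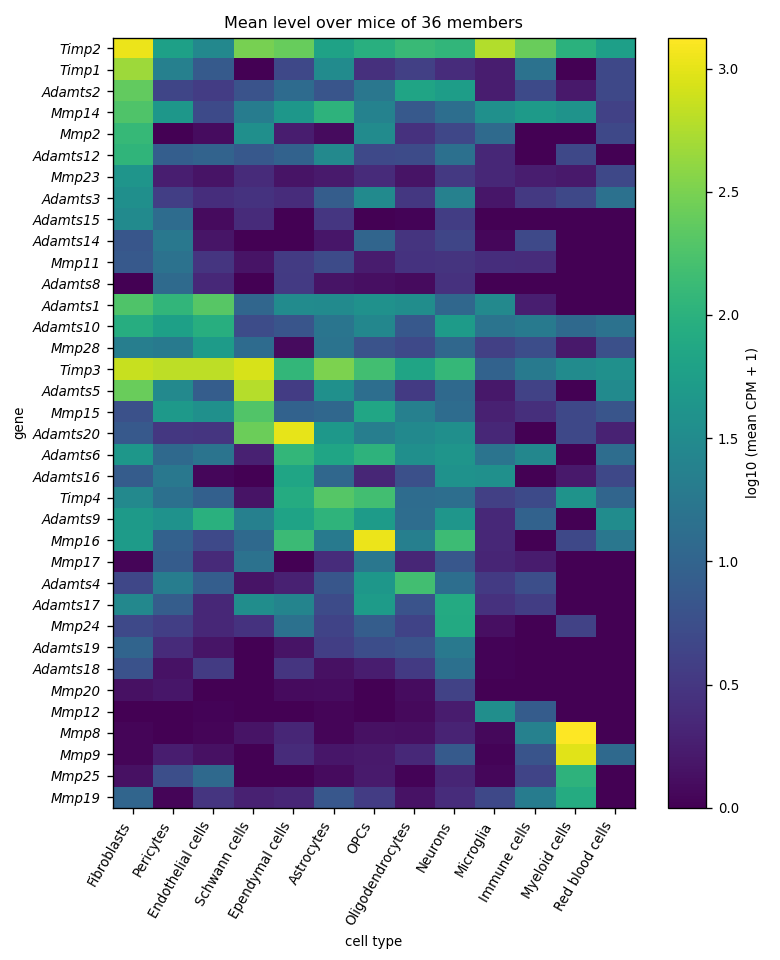
Mean level over mice of the 36 genes with at least 50 UMIs (rows, ordered by the cell type with the highest mean) in 13 cell types (columns), as log10 of the mean CPM plus 1. Fibroblasts had the highest mean for 9 genes, neurons for 5 and myeloid cells for 4.

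Cell types were made from these same counts, so levels across them are a description and carry no test. Fibroblasts led 9 of the 36 genes, neurons 5, myeloid cells 4, endothelial cells, ependymal cells, pericytes and Schwann cells 3 each, astrocytes and oligodendrocyte precursor cells (OPCs) 2 each, and oligodendrocytes and microglia 1 each. For 6 of the 36 genes (Timp1, Mmp8, Mmp15, Mmp16, Adamts2 and Adamts20) the mean minus 1 SD of the leading type lay above the mean plus 1 SD of the next type. For 9 genes the leading type was higher than the next in every mouse that had both. Elsewhere the first and second types were not separated beyond the spread between mice.

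Each Timp had its own distribution. Timp1, an inhibitor that is induced in many tissues by injury, was highest in fibroblasts (464 ± 340 CPM, n = 9) and next in astrocytes (31.2 ± 53.8 CPM, n = 15), and fibroblasts were higher in 9 of 9 mice with both. It was low elsewhere, at 22.3 ± 51.6 CPM in pericytes, 6.65 ± 13.2 CPM in endothelial cells and 0.772 ± 1.45 CPM in microglia. Timp2, which blocks gelatinases and also takes part in the activation of pro-Mmp2 by Mmp14, was found in all 13 types. Timp2 was highest in fibroblasts (1094 ± 572 CPM) and microglia (587 ± 224 CPM, n = 14), and fibroblasts were higher in 9 of 9 mice. Schwann cells (300 ± 176 CPM, n = 5), immune cells (255 ± 296 CPM, n = 10) and ependymal cells (253 ± 106 CPM) followed for Timp2 and were not separated from each other. The lowest Timp2 level was that of endothelial cells (27.8 ± 23.2 CPM, n = 15).

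The matrix-bound inhibitor gene Timp3 was high in Schwann cells (868 ± 281 CPM), fibroblasts (739 ± 479 CPM), pericytes (657 ± 203 CPM, n = 15) and endothelial cells (657 ± 265 CPM), and these 4 types overlapped. Astrocytes held 319 ± 107 CPM of Timp3. Microglia held 8.69 ± 7.76 CPM, so that Timp3 had its lowest mean in a type where Timp2 was high. Timp4, whose protein has a narrow tissue range, was highest in astrocytes, with a lowest value of 120 CPM, a median of 163 CPM and a highest of 358 CPM over 15 mice. OPCs followed with 150 ± 57.1 CPM of Timp4 (n = 14), and astrocytes were higher in 11 of 14 mice. Ependymal cells held 83.1 ± 56.1 CPM of Timp4, and the remaining 10 types had means under 40 CPM.

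Among the Mmps, the neutrophil collagenase gene Mmp8 and the gelatinase gene Mmp9 were found mainly in myeloid cells, which had neutrophil markers. Myeloid cells gave 96.3% of the UMIs of Mmp8 and 91.7% of those of Mmp9. Over the 5 mice with at least 10 such cells, Mmp8 was 2033 CPM in WT uninjured replicate 2, 327 CPM (2 UMIs) in WT 1 d replicate 1, 722 CPM (4 UMIs) and 983 CPM in cKO 1 d replicates 1 and 2, and 2609 CPM in cKO 7 d replicate 2. The 3 mice at 1 d were the low ones, and for replicate 1 of both genotypes the value rests on few UMIs. Mmp9 was at 0 UMIs in both shallow 1 d libraries and reached 1040, 1704 and 2136 CPM in the other mice. With at most 3 mice per time point, change over time in myeloid cells was not tested for these genes. Mmp25, a membrane-anchored enzyme of neutrophils, was also highest there (104 ± 124 CPM).

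The membrane-type enzyme gene Mmp16 marked OPCs, at 444 CPM in the lowest, 962 CPM in the median and 1512 CPM in the highest of 14 mice. Neurons (138 ± 87.7 CPM, n = 15) and ependymal cells (133 ± 83.2 CPM) followed, and OPCs were higher than neurons in 14 of 14 mice. Another membrane-type gene, Mmp15, was highest in Schwann cells (188 ± 70.3 CPM) and next in OPCs (70.2 ± 43.3 CPM). Mmp14, which activates pro-Mmp2, was spread more widely, at 183 ± 86.3 CPM in fibroblasts and 103 ± 30.9 CPM in astrocytes, with 36.3 ± 16.4 CPM in microglia and 49.1 ± 65.2 CPM in immune cells. The gelatinase gene Mmp2 was highest in fibroblasts (124 ± 127 CPM), and its SD was as large as its mean. The macrophage elastase gene Mmp12 was highest in microglia, which gave 95.8% of its UMIs.

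Of the Adamts genes, Adamts20 was highest in ependymal cells, with 421, 960 and 1456 CPM as the lowest, median and highest of 10 mice. It was next highest in Schwann cells (262 ± 146 CPM), and ependymal cells were higher in 4 of 4 mice with both. The aggrecanase gene Adamts4 was highest in oligodendrocytes (151 ± 49.3 CPM, n = 15), which gave 71.2% of its UMIs, and was above OPCs in 13 of 14 mice. The other main aggrecanase gene, Adamts5, was highest in Schwann cells (598 ± 284 CPM) and next in fibroblasts (256 ± 151 CPM). These paired aggrecanases thus led in different glial types. The procollagen-processing gene Adamts2 was highest in fibroblasts (235 ± 129 CPM) and next in oligodendrocytes (66.7 ± 31.2 CPM).

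Adamts1, a versican-cutting enzyme gene, was highest in endothelial cells (207 ± 61.1 CPM), followed by fibroblasts (183 ± 169 CPM) and pericytes (113 ± 50.7 CPM). Fibroblasts and endothelial cells were not separated, since endothelial cells were higher in 5 of 9 mice. Adamts9, another versican-cutting enzyme gene, was highest in astrocytes (108 ± 65.2 CPM) and nearly as high in endothelial cells (94.3 ± 77.5 CPM). Adamts6 led in ependymal cells (115 ± 80.8 CPM), close to OPCs (103 ± 65.9 CPM), and held 26.6 ± 29.1 CPM in immune cells. Adamts16 was at 67.5 ± 58.7 CPM in ependymal cells and 35.6 ± 24.0 CPM in microglia. Red blood cells, a type with 4 usable mice, held only 10 UMIs of Timp2, 3 of Timp3 and 2 of Adamts9 in those mice.

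Clusters of a single type differed within mice, which again is a description. In microglia, Timp2 was 747 ± 365 CPM in Cluster 10 against 467 ± 149 CPM in Cluster 6, higher in 13 of 14 mice. Mmp12 was 69.2 ± 93.0 CPM in Cluster 10 against 0.460 ± 1.31 CPM in Cluster 6, and Cluster 10 held 95.0% of all UMIs of Mmp12 (477 UMIs against 4). Adamts6 went the other way, at 6.92 ± 10.2 CPM in Cluster 10 against 20.1 ± 11.7 CPM in Cluster 6, lower in 12 of 14 mice. The immune markers summed to 4253 CPM in the first of these clusters and 1166 CPM in the second, and the microglia markers to 12457 and 19244 CPM.

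In astrocytes, Adamts9 was 149 ± 52.4 CPM in Cluster 7 and 62.5 ± 92.8 CPM in Cluster 5, higher in 12 of 14 mice, and Adamts20 was 72.7 ± 33.3 against 22.9 ± 28.8 CPM, higher in 13 of 14. Timp2 was the reverse, with 21.9 ± 11.1 CPM in Cluster 7 and 109 ± 61.6 CPM in Cluster 5, which was higher in 14 of 14 mice. Summed oligodendrocyte markers were also lower in Cluster 7 (1858 CPM) than in Cluster 5 (13318 CPM), and their part in the Timp2 difference was not tested. The oligodendrocyte clusters differed in the same gene, since Timp2 was 159 ± 39.7 CPM in Cluster 4 and 74.6 ± 33.5 CPM in Cluster 8, with Cluster 4 higher in 14 of 14 mice. Mmp15 was higher in Cluster 8 in 13 of 14 mice (40.6 ± 19.3 against 11.3 ± 7.69 CPM).

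Which of these genes moved after injury was then tested over mice, in each cell type, with edgeR on UMIs summed per mouse and type. At 1 d, Timp1 in astrocytes and Adamts9 in endothelial cells rose. They were 2 of 62 gene and cell type pairs tested (22 genes, 7 types) at an adjusted p under 0.05, against 0.426% of all genes and types tested (201 of 47169). A further 5 pairs had an unadjusted p under 0.05, and DESeq2 called 3 pairs. The median log2 fold change of the 62 pairs was -0.13.

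Timp1 in astrocytes was 2.73 CPM (1 UMI) in WT uninjured replicate 1 and 0 in the other 3 uninjured mice. At 1 d it was 168 CPM (10 UMIs) in WT replicate 1, 138 CPM (6 UMIs) in cKO replicate 1 and 73.3 CPM (68 UMIs) in cKO replicate 2. At 7 d it was 15.7 and 6.56 CPM in WT and 45.0 and 0.659 CPM in cKO, and at 14 d it was 8.56 and 3.40 CPM in WT and 1.61 and 4.90 CPM in cKO. All 3 mice at 1 d lay above all 12 others, and the later mice mostly lay a little above the uninjured ones. The log2 fold change at 1 d was 7.02 (SE 0.97, adjusted p = 0.00209 by edgeR), where 0.303% of genes tested in astrocytes were called. As the uninjured mice held 1 UMI in all, the pooled ratio was 158 with a counting interval of 27.6 to 6311, which covers counting error only.

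The Timp1 UMIs at 1 d came from 47 of 753 astrocytes (6.24%, median 685 UMIs per cell), against 1 of 1289 uninjured astrocytes (0.0776%, median 1056 UMIs per cell). The most in 1 cell was 12 UMIs. The call at 1 d held in 15 of 15 fits that left out a mouse, with adjusted p from 0.000432 to 0.0298 by edgeR. Without the 4 shallow libraries, a choice made after seeing the data, 1 mouse is left at 1 d, and the log2 fold change was 7.33 (edgeR adjusted p = 0.00771) if that lone mouse varies like the other groups. Fitted in each cluster on its own, Timp1 had enough UMIs only in Cluster 5 of the astrocyte clusters and was not called there (5.83, edgeR adjusted p = 0.0523). The call was lost with the cell names' conditions (5.69, adjusted p = 0.722 by edgeR), without replicate 2 (adjusted p = 0.0532) and in WT or cKO mice alone (adjusted p = 0.862 and 0.236), and over all 29 alternatives the adjusted p ran from 1.18e-13 to 0.862.

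Timp1 at 1 d was not confined to astrocytes. Pooled over the mice of a time point, Timp1 at 1 d was 863 CPM in fibroblasts, 126 CPM in pericytes, 33.9 CPM in endothelial cells, 30.9 CPM in immune cells, 24.4 CPM in oligodendrocytes, 17.1 CPM in neurons and 3.43 CPM in microglia. In uninjured mice the pooled level of Timp1 was 132 CPM in fibroblasts, 1.79 CPM in endothelial cells, 1.05 CPM in neurons and 0 in pericytes, immune cells, oligodendrocytes and microglia. Astrocytes pooled to 81.5 CPM at 1 d and to 0.516 CPM in uninjured mice. At 1 d the counting intervals of astrocytes (65.0 to 101 CPM) and pericytes (84.3 to 181 CPM) overlapped, so these types are not ranked. The pooled astrocyte value is mostly that of cKO replicate 2, which gave 928075 of the 1031051 astrocyte UMIs at 1 d. Myeloid cells and Schwann cells held 0 UMIs of Timp1 at 1 d, but the upper limits of their counting intervals were 57.2 and 102 CPM. These zeros therefore do not set them apart from most other types. Among types with UMIs, the level at 1 d differed widely, from 3.43 CPM in microglia to 863 CPM in fibroblasts. Fibroblasts at 1 d were close to each other, with 918 CPM (5 UMIs) in WT replicate 1 and 819 (6 UMIs) and 863 CPM in cKO. Of the uninjured mice only WT replicate 2 had enough fibroblasts (297 CPM, 7 UMIs), so 1 d against uninjured was not tested there. Free RNA from other cells can add UMIs to astrocytes, and its part in the rise was not tested. Fibroblast markers in astrocytes summed to 50.4, 207 and 90.5 CPM at 1 d and to 58.1 to 265 CPM in uninjured mice, so they did not move with Timp1. At 1 d, 2, 2 and 3 of the 5 markers had a UMI, Col1a2 was the most abundant, and Lum and Col3a1 were at 0 in all 3 mice. Endothelial markers in astrocytes did move with Timp1, at 370, 391 and 262 CPM summed at 1 d against 120, 35.1, 88.2 and 150.0 CPM in uninjured mice, without overlap. At 1 d, 5, 4 and 5 of the 5 endothelial markers had a UMI, Ly6c1 or Flt1 was the most abundant, and Pecam1 was at 0 in cKO replicate 1. Ependymal markers were just apart as well, at 23.0 to 67.2 CPM against 0 to 22.97 CPM, from 1 to 26 UMIs per mouse at 1 d.

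Adamts9 in endothelial cells was 75.8 and 24.9 CPM in WT and 46.1 and 28.8 CPM in cKO uninjured mice. At 1 d it was 290 CPM in WT replicate 1, 114 CPM in cKO replicate 1 and 259 CPM in cKO replicate 2. At 7 d it was 83.3 and 76.8 CPM in WT and 39.6 and 73.9 CPM in cKO, and at 14 d it was 68.2 and 64.5 CPM in WT and 106 and 63.8 CPM in cKO. All 3 mice at 1 d were above every other mouse, although cKO replicate 1 was only slightly so. The log2 fold change at 1 d was 2.24 (SE 0.36, adjusted p = 0.0334 by edgeR), where 0.0544% of genes tested in endothelial cells were called. Pooled over mice, the ratio was 4.64 with a counting interval of 3.70 to 5.86. Pooled Adamts9 at 1 d was 91.2 CPM in pericytes, 81.9 CPM in OPCs and 169 CPM in ependymal cells. Uninjured, these were 41.6, 27.9 and 28.2 CPM (3 UMIs). Counting intervals overlapped except in ependymal cells. EdgeR did not call pericytes (log2 fold change 1.56, SE 0.81). Neurons, oligodendrocytes, immune cells and microglia were higher by less. Astrocytes (46.6 against 52.6 CPM), fibroblasts and red blood cells were lower. The rise is not read as particular to endothelial cells. The share of endothelial cells with any UMI of Adamts9 was nearly the same at 1 d (8.54%, median 503 UMIs per cell) as in uninjured mice (7.72%, median 1363 UMIs per cell), and it was 17.9% at 14 d (median 3933.5 UMIs per cell). A single cell at 1 d held 24 UMIs of it.

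The Adamts9 call was less stable than that of Timp1. It held in 6 of 15 fits that left out a mouse. The adjusted p of edgeR was 0.286 without WT 1 d replicate 1, 0.360 without cKO 1 d replicate 2, 0.0583 and 0.0568 without WT 7 d replicates 1 and 2, 0.0515 and 0.0648 without cKO 7 d replicates 1 and 2, 0.0727 without WT uninjured replicate 2, and 0.109 and 0.170 without cKO uninjured replicates 1 and 2. It was also lost without replicate 2 (log2 fold change 1.59, edgeR adjusted p = 0.453), without the 4 shallow libraries (2.51, adjusted p = 0.0731, with 1 mouse at 1 d), with means of the 8 conditions (adjusted p = 0.129), in WT or cKO mice alone (adjusted p = 0.999 and 0.914) and with the cell names' conditions (1.76, adjusted p = 1.000). Over 28 alternatives the log2 fold change of Adamts9 stayed between 1.59 and 3.03, with adjusted p from 4.89e-09 to 1.000. Pericyte and smooth muscle markers in endothelial cells summed to 483 to 1553 CPM at 1 d and to 571 to 768 CPM in uninjured mice, and their part in the result was not tested.

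**Figure D2:**
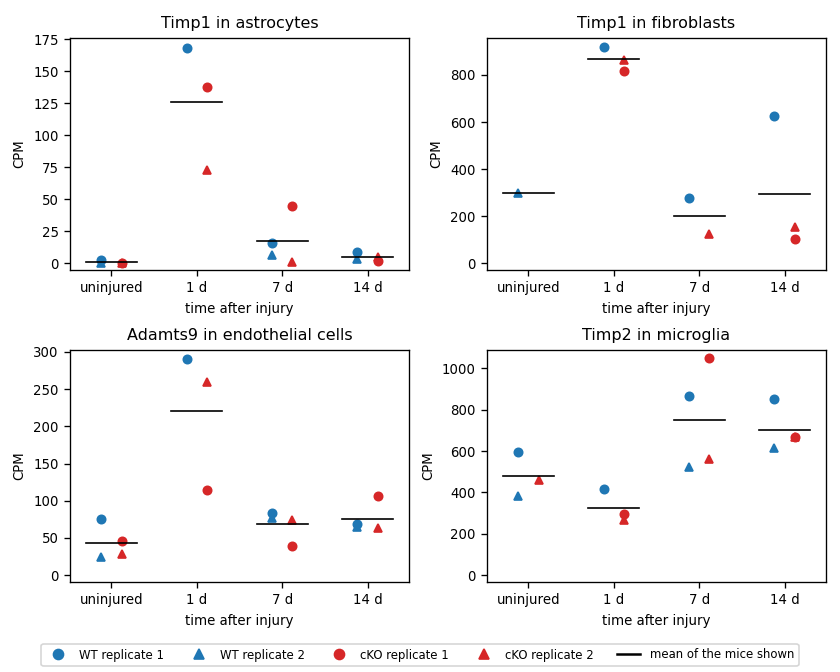
CPM of Timp1 in astrocytes and fibroblasts, Adamts9 in endothelial cells and Timp2 in microglia (vertical axes) by time after injury, with a point for each mouse that had at least 10 cells of the type (blue WT, red cKO, circles replicate 1, triangles replicate 2) and a line for the mean of those mice. Timp1 in astrocytes and Adamts9 in endothelial cells were highest in the 3 mice at 1 d.

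The other pairs of smallest p at 1 d did not pass. Adamts16 in microglia was 13.9 CPM (1 UMI), 10.3 CPM (1 UMI) and 14.5 CPM (6 UMIs) at 1 d, against 54.3, 97.6 and 23.0 CPM in the 3 uninjured mice. These groups did not overlap, on few UMIs, and the log2 fold change of -2.27 (SE 0.67) had an adjusted p = 0.0723 by edgeR and 0.0481 by DESeq2 (0.0481 to 0.860 over 28 alternatives). Adamts1 in endothelial cells was 330, 188 and 296 CPM at 1 d and 221, 81.0, 138 and 144 CPM in uninjured mice, which overlap (log2 fold change 0.77, edgeR adjusted p = 0.752). Adamts2 in oligodendrocytes was 9.25, 40.0 and 30.7 CPM at 1 d and 49.7, 67.7, 105 and 24.0 CPM in uninjured mice, which overlap too (-1.22, edgeR adjusted p = 0.982).

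At 7 d against uninjured, edgeR called 0 of 62 pairs, with 0.0551% called over all genes and types, 4 pairs at an unadjusted p under 0.05 and 0 pairs called by DESeq2. At 14 d, edgeR called 0 of 62 pairs, with 0.418% called over all genes and types, 7 pairs at an unadjusted p under 0.05 and 1 pair called by DESeq2. Timp4 in astrocytes was 189 and 138 CPM in WT and 120 and 153 CPM in cKO at 7 d, against 358 and 161 CPM in WT and 276 and 169 CPM in cKO uninjured mice. The groups overlapped, and the log2 fold change of Timp4 was -0.97 (SE 0.29, edgeR adjusted p = 0.732) at 7 d and -0.63 (SE 0.28, edgeR adjusted p = 1.000) at 14 d. In neurons at 7 d the log2 fold changes were -0.82 for Timp2, -0.93 for Timp3 and 0.82 for Adamts20, and Timp3 in endothelial cells was at -0.62. These 4 pairs had adjusted p of 0.483, 0.501, 0.520 and 0.445 by edgeR. Neurons of WT uninjured replicate 1 held 411 CPM of Timp3, far above the 138, 95.2 and 73.7 CPM of the other uninjured mice.

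The pair called by DESeq2 at 14 d was Mmp12 in microglia. It had 0 UMIs in all 3 uninjured mice. At 1 d it was 55.4 CPM (4 UMIs), 10.3 CPM (1 UMI) and 2.42 CPM (1 UMI), and at 7 d it was 56.1 and 8.16 CPM in WT and 22.3 and 3.59 CPM in cKO. At 14 d Mmp12 was 31.5 and 37.1 CPM in WT and 205 CPM (331 UMIs) and 38.5 CPM in cKO. Every injured mouse with enough microglia thus had Mmp12 there, and none of the uninjured mice did. Pooled over mice, the ratio of 14 d to uninjured was at least 14.6 against a floor of 3 counts over the uninjured group, and the lower limit of its counting interval was 11.8. Without cKO replicate 1, which gave 331 of the 451 UMIs, the pooled 14 d level was 36.3 CPM and these bounds were 5.79 and 4.63. The log2 fold change was 8.15 (SE 2.54), and the adjusted p was 0.135 by edgeR, 0.0223 by DESeq2 and 0.0198 by edgeR with the replicate number as a block (1.75e-07 to 0.593 over 28 alternatives). A single cell held 158 UMIs of Mmp12, and 37 of 547 microglia at 14 d (6.76%, median 6569 UMIs per cell) had any, against 0 of 203 uninjured microglia (median 1929 UMIs per cell). The 6 immune markers summed to 769, 1194 and 771 CPM in uninjured microglia and to 3509, 2243, 3022 and 3219 CPM at 14 d, with Lyz2 the most abundant at 14 d and Ccr2 and Ms4a7 at 0 in all 3 uninjured mice. They moved with Mmp12, as did the markers of OPCs (46.7 to 58.9 against 7.51 to 27.2 CPM). Markers of Schwann cells did so less strongly (154 to 238 against 115 to 150.2 CPM), while those of oligodendrocytes and of microglia themselves were lower. Their part in the level of Mmp12 was not tested.

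In neurons at 14 d, Adamts3, a procollagen- and Vegfc-processing enzyme gene, was 37.2 and 39.6 CPM in WT and 28.6 and 45.3 CPM in cKO, against 19.6 and 19.8 CPM in WT and 17.3 and 4.92 CPM in cKO uninjured mice. The groups did not overlap, but the log2 fold change of 1.26 (SE 0.42) had an adjusted p = 0.136 by edgeR. Timp3 in neurons at 14 d was at -1.11 (SE 0.37, edgeR adjusted p = 0.139) and Adamts20 at 0.78 (SE 0.34, edgeR adjusted p = 0.261). Adamts12 in neurons had too few UMIs for the test. It was 23.7 and 22.8 CPM in WT and 39.8 and 31.2 CPM in cKO at 14 d, against 4.90, 4.94, 5.77 and 4.92 CPM (1 or 2 UMIs each) in uninjured mice, without overlap. Where it was tested it was called by edgeR with at least 30 cells (2.50, adjusted p = 0.0438), with no filter on low counts (adjusted p = 0.00409) and without the 4 shallow libraries (adjusted p = 0.0290), and not with means of the 8 conditions (adjusted p = 0.0550), in cKO mice alone (adjusted p = 0.167) or without replicate 1 (adjusted p = 0.0932). Leaving out WT 1 d replicate 1 gave the same values as the fit with at least 30 cells, so it is no separate result. Leaving out cKO 1 d replicate 1 gave an edgeR adjusted p = 0.0209.

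The later time points were also set against 1 d, a comparison added after seeing the data. By edgeR, 3 of 84 pairs passed at 7 d against 1 d (0.796% of all genes and types, 20 pairs at an unadjusted p under 0.05) and 3 of 84 at 14 d against 1 d (0.804%, 18 pairs). By DESeq2 there were 5 and 3. Over the alternatives the count fell to 0, with the cell names' conditions among others. It was highest without replicate 1, where a lone mouse is left at 1 d. For DESeq2 and these alternatives the share of all genes called is not given here. Their counts are therefore not read as a result about these genes. Among all genes an unadjusted p under 0.05 was also common. It was reached at 7 d and 14 d by 584 and 510 of 8923 genes in astrocytes (4 and 4 of 14 members). In endothelial cells these were 1345 and 1248 of 9186 genes (3 and 1 of 9 members). In microglia they were 1736 and 1605 of 7348 genes (2 and 3 of 6 members). The pairs called by edgeR were Timp1 in astrocytes and Adamts9 in endothelial cells, which fell, and Timp2 in microglia, which rose, in both comparisons. At 7 d DESeq2 also called Timp1 in fibroblasts and Timp2 in fibroblasts (pooled 563 CPM at 1 d, 1824 CPM at 7 d). These comparisons share the 1 d mice with the comparison against uninjured, so a low or high 1 d mouse enters all of them. Timp1 in astrocytes fell with a log2 fold change of -4.39 (SE 0.76, edgeR adjusted p = 0.0249, 0.0897% of astrocyte genes called) at 7 d and -4.63 (SE 0.65, edgeR adjusted p = 0.00266, 0.269% called) at 14 d. Adamts9 in endothelial cells fell with -1.82 (SE 0.34, edgeR adjusted p = 0.0485, 0.174% called) at 7 d and -1.69 (SE 0.32, edgeR adjusted p = 0.0349, 0.239% called) at 14 d. With the cell names' conditions, edgeR gave adjusted p of 0.341 and 0.929 for Timp1 and of 1.000 for Adamts9 at both times. Without the 4 shallow libraries 1 d is a single mouse. If it varies like the other groups, the edgeR adjusted p was 0.0122 and 0.00670 for Timp1 and 0.0751 and 0.0655 for Adamts9. In Cluster 5 on its own Timp1 was not called in either comparison (edgeR adjusted p = 0.0945 and 0.0586).

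Leaving out a mouse changed some of these calls. The fall of Timp1 in astrocytes held in 15 of 15 such fits at 14 d and in 9 of 15 at 7 d, where the edgeR adjusted p was 0.0630 without WT 1 d replicate 1, 0.305 without cKO 1 d replicate 2, 0.222 without WT 7 d replicate 2, 0.981 without cKO 7 d replicate 2, and 0.0579 and 0.0567 without cKO 14 d replicates 1 and 2. The fall of Adamts9 in endothelial cells held in 8 of 15 fits at 14 d, where the edgeR adjusted p reached 0.184 without WT 1 d replicate 1, 0.175 without cKO 1 d replicate 2, 0.174 without WT 14 d replicate 2, 0.181 without cKO 14 d replicate 2, 0.0530 without WT 7 d replicate 1, 0.0540 without cKO 7 d replicate 2 and 0.0576 without cKO uninjured replicate 2. At 7 d it held in 4 of 15. The edgeR adjusted p of Adamts9 was then 0.152 without WT 1 d replicate 1, 0.373 without cKO 1 d replicate 2, 0.0540 and 0.216 without WT 7 d replicates 1 and 2, 0.0814 and 0.291 without cKO 7 d replicates 1 and 2, 0.0577 without WT 14 d replicate 2, 0.0558 and 0.0786 without cKO 14 d replicates 1 and 2, and 0.0561 and 0.0563 without cKO uninjured replicates 1 and 2. Over all alternatives the edgeR and DESeq2 adjusted p of Timp1 ran from 1.64e-08 to 0.983 at 7 d and from 3.64e-13 to 0.929 at 14 d, and that of Adamts9 from 6.26e-08 to 1.000 and from 9.79e-09 to 1.000. Mmp12 in microglia at 14 d against 1 d had a log2 fold change of 2.84 and an edgeR adjusted p = 0.139, which was 0.0462 with the replicate number as a block.

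Timp2 in microglia was 594 and 383 CPM in WT and 460 CPM in cKO uninjured mice. At 1 d it was 416 CPM in WT and 297 and 266 CPM in cKO. At 7 d it was 866 and 522 CPM in WT and 1051 and 563 CPM in cKO, and at 14 d it was 849 and 615 CPM in WT and 669 and 670 CPM in cKO. All 8 mice at 7 d and 14 d lay above the 3 mice at 1 d, while uninjured mice overlapped with 1 d and 7 d. The log2 fold change against 1 d was 1.26 (SE 0.34, edgeR adjusted p = 0.0363) at 7 d, where 5.58% of genes tested in microglia were called, and 1.19 (SE 0.34, edgeR adjusted p = 0.0492) at 14 d, where 4.68% were called. With that many genes called, this pair does not stand out from the rest of the microglial genes. The 6 immune markers in microglia summed to 603 to 1594 CPM at 1 d, 1460 to 4675 CPM at 7 d and 2243 to 3509 CPM at 14 d. The neutrophil list summed to 103 to 222, 366 to 505 and 295 to 443 CPM, nearly all of it Csf3r, with Ly6g and Retnlg at 0 in all 11 mice. Neuron markers were lower at 7 d and 14 d than at 1 d (152 to 242 CPM at 1 d, 81.6 to 136 CPM at 7 d, 64.4 to 147 CPM at 14 d). Apart at 7 d only were endothelial markers (50.6 to 120.3 against 195 to 347 CPM), and at 14 d only those of red blood cells (1.86 to 12.9 against 71.8 to 7666 CPM) and OPCs (46.7 to 58.9 against 13.9 to 41.0 CPM). Their part in the level of Timp2 was not tested.

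Timp2 differed between the merged microglia clusters, and the part of their mix in the change was not tested. In each cluster on its own, edgeR called Timp2 in Cluster 10 (log2 fold change 1.74, adjusted p = 0.0349 at 7 d and 1.52, adjusted p = 0.0494 at 14 d against 1 d) and not in Cluster 6 (0.86, adjusted p = 0.160 and 0.70, adjusted p = 0.238). The calls in microglia as a whole depended on single mice. At 7 d the call held in 8 of 15 fits that left out a mouse, and the edgeR adjusted p was 0.0798 without WT 1 d replicate 1, 0.0828 and 0.199 without cKO 1 d replicates 1 and 2, 0.0635 without WT 7 d replicate 1, 0.0902 without cKO 7 d replicate 1, and 0.0538 and 0.0542 without cKO 14 d replicates 1 and 2. At 14 d the call of Timp2 held in 5 of 15 fits, and the edgeR adjusted p was 0.115 without WT 1 d replicate 1, 0.113 and 0.193 without cKO 1 d replicates 1 and 2, 0.0642 without WT 7 d replicate 1, 0.0546 and 0.0539 without WT 14 d replicates 1 and 2, 0.112 and 0.106 without cKO 14 d replicates 1 and 2, 0.0558 without WT uninjured replicate 2 and 0.0588 without cKO uninjured replicate 2. Without the 4 shallow libraries edgeR gave Timp2 an adjusted p = 0.356 at 7 d and 0.160 at 14 d, with 1 mouse left at 1 d, and with the cell names' conditions 0.308 and 0.442. Over all alternatives it ran from 0.00230 to 0.707 at 7 d and from 0.000167 to 0.666 at 14 d.

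Timp1 in fibroblasts was 277 and 124 CPM at 7 d and 624, 101 and 153 CPM at 14 d, all below the 3 mice at 1 d. It was not called by edgeR (log2 fold change -2.19, adjusted p = 0.471 at 7 d and -1.44, adjusted p = 0.783 at 14 d against 1 d). DESeq2 called it at 7 d (adjusted p = 0.0493) and not at 14 d (adjusted p = 0.268). With the animal number series in the design edgeR called it at both times (adjusted p = 0.0206 and 0.0373), and without the 4 shallow libraries too (adjusted p = 0.000202 and 8.57e-06), where 1 mouse is left at 1 d and 1 at 7 d. It was not called with the replicate number as a block (adjusted p = 0.512 and 0.965) or with the cell names' conditions (adjusted p = 0.388 and 0.906). Without cKO 1 d replicate 2 the log2 fold change of Timp1 was -1.12 and -0.43 (edgeR adjusted p = 0.674 and 0.926).

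Between cKO and WT, with time in the model, edgeR called 0 of 93 pairs (28 genes), with 0.0017% called over all genes and types, 4 pairs at an unadjusted p under 0.05 and 0 pairs called by DESeq2. The change after injury was also compared between genotypes, a test added after seeing the data. By edgeR it was called for 0 of 88 pairs at 1 d, 7 d and 14 d, as for 0 of 63177 pairs over all genes, with 1, 3 and 4 pairs at an unadjusted p under 0.05, and DESeq2 was not run on it. With a single WT mouse at 1 d, that time point says little on the genotypes. The smallest p for genotype was that of Adamts6 in ependymal cells. The WT mice held 54.1 and 26.2 CPM at 14 d, 0 at 1 d and 69.0 CPM (2 UMIs) at 7 d. In cKO mice Adamts6 was 255 CPM at 14 d, 158 and 141 CPM at 1 d, 137 and 210 CPM at 7 d and 100.4 CPM uninjured. All 6 cKO mice lay above all 4 WT mice, on 2 to 32 UMIs where any were found. The log2 fold change was 2.53 (SE 0.56, edgeR adjusted p = 0.756), and with the replicate number as a block the adjusted p was 0.0403 (0.0403 to 1.000 over 22 alternatives). With the cell names' conditions the log2 fold change of Adamts6 was 0.65.

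Timp4 in fibroblasts was 171 CPM (26 UMIs) in WT 14 d replicate 1 and 0 in the other 3 WT mice, and 0 to 59.5 CPM in 5 cKO mice. The log2 fold change of Timp4 for genotype was -2.73 (SE 0.92, edgeR adjusted p = 0.999), and a single WT mouse was high. Timp2 in OPCs was at 0.85, Timp3 in pericytes at -0.47 and Adamts1 in pericytes at -0.55, with adjusted p of 1.000 for all 3 by edgeR. Without the 4 shallow libraries edgeR called 5 of 132 pairs for genotype, all in fibroblasts, where 6.48% of all genes were called (0.513% over all types). Only 14 d then has fibroblasts of both genotypes, from 1 WT and 2 cKO mice, so these calls rest on a single WT mouse, the same that was high in Timp4, and no genotype difference is read from them.

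A list of 31 other genes of matrix proteolysis was tested in the same fits, covering Adam proteases, Adamts-like proteins, activators such as plasminogen activators, inhibitors, and proteoglycan substrates. By edgeR, 4 of 92 pairs rose at 1 d and 0 fell, where 0.426% of all genes and types, 0.303% of astrocyte genes and 2.30% of microglial genes were called. They were Adam12, a membrane protease gene, in astrocytes (log2 fold change 4.1, SE 0.49, adjusted p = 0.000499), the tissue plasminogen activator gene Plat in astrocytes (3.08, adjusted p = 0.0346), and Adam15 and Adam8 in microglia (1.27 and 3.69, adjusted p = 0.0314 and 0.0372). At 7 d edgeR called 0 of 92 pairs, with 16 pairs at an unadjusted p under 0.05 and 0 called by DESeq2. At 14 d the pairs that rose by edgeR included the versican gene Vcan in neurons (1.78, adjusted p = 0.0385), where 0.977% of neuronal genes were called. For genotype edgeR called 0 of 133 pairs, with 5 at an unadjusted p under 0.05 and 0 called by DESeq2. Against 1 d, 4 of 123 pairs fell at 7 d (Adam12 in astrocytes, Adam8 and Adam15 in microglia, and the thrombospondin gene Thbs1 in immune cells) and 3 of 123 fell at 14 d (Adam12, Adam8 and Thbs1 in the same types). Of all genes, 5.58% and 4.68% were called in microglia in these comparisons, 0.251% and 2.66% in immune cells, and 0.0897% and 0.269% in astrocytes. With the cell names' conditions edgeR kept Thbs1 in both comparisons (adjusted p = 0.000662 and 0.00447) and lost the other pairs named here. The log2 fold changes at 1 d were then 3.54 for Adam12, 3.04 for Plat, 1.15 for Adam15 and 3.11 for Adam8, with edgeR adjusted p of 0.722, 0.722, 0.380 and 0.506. The adjusted p of edgeR was 0.335 for Vcan (1.86), and 0.283 to 0.659 for Adam12, Adam8 and Adam15 against 1 d. Without the 4 shallow libraries, with 1 mouse at 1 d, Plat (3.00, edgeR adjusted p = 0.166) and Adam15 (1.47, adjusted p = 0.109, and -0.98, adjusted p = 0.147 at 7 d against 1 d) were lost and the other pairs named here were kept.

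In a GENCODE annotation of mm10, 13 of the 46 genes lie on chromosome 9. From Mmp13 (chr9:7272514-7283331) to Mmp7 (chr9:7692090-7699585), 10 Mmp genes stand in a row. Members of this row differed in their cell types, since Mmp8 was highest in myeloid cells, Mmp12 in microglia and Mmp20 in neurons, and 7 of the 10 had under 50 UMIs. Adamts1 and Adamts5 lie near each other on chromosome 16 and led in endothelial and Schwann cells. Timp1, Timp3 and Timp4 overlap the synapsin genes Syn1, Syn3 and Syn2 on the opposite strand, Timp2 overlaps Cep295nl on its own strand, and Mmp12 overlaps Mmp1b on the opposite strand. The strand setting of the counting is not given in the sources used here, so UMIs of such partners may not be fully told apart.

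The promoters of the genes that rose at 1 d are shown because they moved at the same time in different cell types. They are taken from RefSeq on GRCm38.p6, from 250 bases before to 50 bases after the start of the gene, 5′ to 3′ on the strand of the gene. Timp1 lies on the plus strand (chrX:20869916-20870215) and Adamts9 on the minus strand (chr6:92943485-92943784). Both strands were searched for TGANTCA, the consensus form of the AP-1 motif, where N is any base. Forms that differ from it by a base, such as TGAGTAA in the Timp1 sequence below, were not searched for. TGANTCA had 0 matches in both promoters, which says only that these letters are not in these windows. Of all 32851 promoters of this length 7.81% held the motif, and of the 35 promoters of 32 of the 46 genes, 8 did.
Timp1: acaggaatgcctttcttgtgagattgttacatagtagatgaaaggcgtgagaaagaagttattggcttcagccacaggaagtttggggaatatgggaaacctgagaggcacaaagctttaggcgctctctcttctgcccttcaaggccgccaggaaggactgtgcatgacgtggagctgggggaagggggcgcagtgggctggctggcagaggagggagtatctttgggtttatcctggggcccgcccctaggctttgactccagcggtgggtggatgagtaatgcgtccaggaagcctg
Adamts9: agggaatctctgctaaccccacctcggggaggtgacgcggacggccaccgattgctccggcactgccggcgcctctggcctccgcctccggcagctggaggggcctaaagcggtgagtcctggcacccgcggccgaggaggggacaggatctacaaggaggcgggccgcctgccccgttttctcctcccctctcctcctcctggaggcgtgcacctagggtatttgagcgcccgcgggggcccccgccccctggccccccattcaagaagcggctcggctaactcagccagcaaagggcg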

How the data were processed

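The authors counted UMIs with Cell Ranger on mm10, filtered and joined the cells in R 4.1.2 with Seurat and Harmony, and deposited raw counts of 18203 cells with a table of clusters. The annotation release is not given in the sources used here. Conditions followed the sample titles. Counts were summed per mouse and cell type where a mouse had at least 10 cells. They were tested with edgeR 4.0.16 in R 4.3.3 (TMM, filterByExpr, quasi-likelihood F test, time plus genotype, at least 2 mice per side except in alternatives that leave mice out or take a single genotype and in the genotype difference of the change at 1 d, where a lone mouse is assumed to vary like the others, Benjamini-Hochberg adjustment over all genes of a cell type, threshold 0.05), and DESeq2 1.42.0 was an alternative. The fits were tested on simulated data. Changes were placed only in genes above a minimum number of UMIs, and all genes had the same set spread between mice. Recovery there therefore says nothing on genes with few UMIs or a wider spread. With a simulated log2 change of 3, edgeR found 198 of 199 changed genes in astrocytes and 200 of 200 in endothelial cells and called 11 and 6 other genes, and with no gene changed it called 0 in both. CPM were computed without TMM. Neither doublets nor free RNA were removed. Intervals are at 95% and, like floors of 3 counts, cover counting error only.

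Genes named with values were all Timps, every member with an adjusted p under 0.05, the 5 pairs of smallest p in each comparison with uninjured and for genotype, and the 3 members of highest mean CPM in each cell type. Alternatives were DESeq2, no filter on low counts, at least 30 cells, cells thinned to 1000 UMIs, pooled levels, clusters on their own, a block for replicate number or for the series of animal numbers (under 10000 or not), means of the 8 conditions, WT or cKO mice alone, conditions from the cell names, and each mouse and each replicate number left out. Other genes that are named were chosen after their values were seen. The members and lists were chosen with earlier results of these data known. Replicate numbers matched the batch entry of the deposited cell table for 16 of 16 mice, so they pair mice by that label. Deviations of same-numbered mice from their condition means had a median correlation of 0.124 in astrocytes (12 of 21 pairs of conditions over 0.1), 0.102 in endothelial cells (11 of 21) and 0.0592 in microglia (5 of 15). Tables were made with Python 3.11.15, numpy 2.4.6, pandas 2.3.3 and scipy 1.17.1, and figures with matplotlib 3.10.9.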

Additional observations from a re-analysis of the deposited data

Results flagged for a closer look

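In 7 of 44 groups of 4 mice examined, a single mouse lay far from the other 3, where chance gives about 1 in 20 groups if values are normally distributed, which groups with few UMIs are not. Mmp12 in microglia at 14 d was 205 CPM in cKO replicate 1. Adamts9 in endothelial cells at 14 d was 106 CPM in the same mouse. Timp1 in astrocytes was 2.73 CPM, from 1 UMI, in uninjured WT replicate 1, and Timp3 in pericytes was 1271 CPM in that mouse. Adamts3 in neurons was 4.92 CPM, also from 1 UMI, in uninjured cKO replicate 2. Timp2 in OPCs at 7 d was 159 CPM in cKO replicate 1, and Timp4 in astrocytes at 14 d was 231 CPM in WT replicate 1.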

How the results depend on the processing

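Counts of gene and cell type pairs called by edgeR moved with the processing, and the cause was not tested except where fewer mice or genes enter. Counts whose share over all genes is not given, those of DESeq2 included, are not read as results about these genes. The 2 pairs at 1 d became 0 in WT mice alone, in cKO mice alone and with conditions from the cell names, 1 with each cluster on its own, with means of the 8 conditions and without the 4 shallow libraries, 5 with no filter on low counts, and 3 with DESeq2 or the animal number series, which add Adamts16 in microglia. Leaving out a mouse or a replicate number gave 0 to 6 at 1 d, 0 to 10 at 7 d, 0 to 11 at 14 d and 0 to 1 for genotype, with the highest counts at each time point without replicate 1, where a lone mouse is assumed to vary like the others. The 0 pairs at 7 d became 3 with the animal number series in the design. The 0 at 14 d became 1 with DESeq2 (Mmp12 in microglia), 1 with at least 30 cells and without the 4 shallow libraries (Adamts12 in neurons), 2 with no filter (both) and 4 with the animal number series. The 0 for genotype became 2 with the animal number series and 5 without the 4 shallow libraries. With the replicate number as a block there were 2 pairs at 1 d, 0 at 7 d, 1 at 14 d (Mmp12 in microglia) and 1 for genotype (Adamts6 in ependymal cells). Besides Mmp12 at 14 d against 1 d, the block changed no other call. Log2 fold changes reversed for Timp3 in neurons in cKO mice alone (0.31 at 7 d and 0.00 at 14 d), Timp3 in endothelial cells at 7 d without replicate 1 (0.21, with -1.19 to 0.21 over fits that left mice out) and Timp4 in fibroblasts for genotype with means of the 8 conditions (1.86). Leaving out cells of shared barcodes kept 2, 0, 0 and 0 pairs. The leading cell type was the same for 25 to 36 of the 36 genes over 6 alternatives. Shared barcodes, the 4 shallow libraries, the comparisons with 1 d and the genotype difference in the change after injury were chosen after seeing the data.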
